A study of Mus musculus with 8 samples.

Results

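Epha2, Spink2, Igfbp6 and Zfp459 are 4 genes whose array signal moved the same way with each of 2 short hairpin RNAs (shRNA1 and shRNA2) directed against 1 RNA-binding protein in mouse erythroid progenitors. They were selected on that shared direction, that is, on the signal of each hairpin group against the control virus with DEX, so these differences are given as a description, with no test. The set holds 4 of the 19130 genes tested, each measured by 1 probe. The cells came from fetal liver of C57BL/6 mice at E14.5. Cells positive for lineage markers, Sca-1, CD16/32, CD41 or CD34 had been depleted with magnets, and c-kit-positive cells within the lowest 10% for CD71 were then sorted. All 4 groups were infected and kept in culture for 3 days. One pair of samples received the control virus and no DEX. The other 3 groups were cultured with DEX and had received the control virus, the shRNA1 virus or the shRNA2 virus. DEX is the agent the labels name, and the series title speaks of glucocorticoids. Total RNA of each sample was labelled with Cy3 and hybridised to a 1-colour array, with 2 arrays in each group and 8 in all. No hairpin group without DEX was analysed here, each hairpin is 1 sequence, and the labels do not say what the control virus carried. Whether 2 arrays of a group came from separate cultures or animals is not in the labels, so an SD or a p-value here may reflect technical spread alone.

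Early erythroid progenitors divide and differentiate into red cells, and glucocorticoids are known to prolong their self-renewal. The labels call the targeted protein only an RNA-binding protein. From knowledge of the published study it is Zfp36l2, a zinc finger protein of the tristetraprolin family, whose members bind AU-rich stretches of mRNA and promote mRNA decay. The 4 genes encode unlike proteins. Epha2 is a receptor tyrosine kinase for the membrane-bound ephrin-A ligands. Igfbp6 is a secreted protein that binds insulin-like growth factors and prefers IGF-II. Spink2 is a Kazal-type inhibitor of serine proteases, known from sperm cells and also from immature blood cells. Zfp459 belongs to the KRAB zinc finger genes, which encode DNA-binding repressors that act through the corepressor Trim28.

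The promoters are printed because the 4 genes were chosen for a shared response and DEX acts through a DNA-binding receptor. RefSeq's table for GRCm38.p6 held a promoter for 4 of the 4 genes, each running from 250 bases before to 50 bases after a start site. The windows are chr4:141300971-141301270 (plus strand) for Epha2, chr5:77211422-77211721 (minus strand) for Spink2, chr15:102143936-102144235 (plus strand) for Igfbp6 and chr13:67421369-67421668 (minus strand) for Zfp459. Spink2 has 3 start sites in the table, and the window shown is the one farthest upstream. Capitals mark the letters TGACGTC on either strand, the core of a cAMP response element.
Epha2: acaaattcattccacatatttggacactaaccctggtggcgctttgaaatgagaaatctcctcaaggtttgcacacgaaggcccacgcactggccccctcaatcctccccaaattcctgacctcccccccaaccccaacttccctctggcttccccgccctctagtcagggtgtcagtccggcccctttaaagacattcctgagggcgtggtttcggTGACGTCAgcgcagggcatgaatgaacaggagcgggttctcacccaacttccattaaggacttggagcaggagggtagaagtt
Spink2: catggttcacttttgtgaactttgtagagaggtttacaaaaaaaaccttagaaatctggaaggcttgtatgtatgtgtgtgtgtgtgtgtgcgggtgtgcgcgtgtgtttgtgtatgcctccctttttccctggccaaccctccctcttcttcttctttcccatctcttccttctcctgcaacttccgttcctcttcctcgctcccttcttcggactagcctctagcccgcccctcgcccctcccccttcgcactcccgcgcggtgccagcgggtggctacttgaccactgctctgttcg
Igfbp6: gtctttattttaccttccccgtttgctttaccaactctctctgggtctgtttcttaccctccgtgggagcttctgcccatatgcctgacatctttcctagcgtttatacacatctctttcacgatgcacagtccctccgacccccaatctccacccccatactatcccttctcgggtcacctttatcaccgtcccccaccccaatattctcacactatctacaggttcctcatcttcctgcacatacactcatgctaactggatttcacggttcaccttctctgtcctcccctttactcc
Zfp459: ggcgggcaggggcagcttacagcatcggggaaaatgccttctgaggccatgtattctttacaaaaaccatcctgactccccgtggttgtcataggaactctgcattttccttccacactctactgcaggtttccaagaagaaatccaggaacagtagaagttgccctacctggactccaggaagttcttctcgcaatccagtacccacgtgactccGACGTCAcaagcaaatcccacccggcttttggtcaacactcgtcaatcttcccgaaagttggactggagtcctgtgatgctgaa

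Both strands of each window were searched for a glucocorticoid response element (GNACA and TGTNC 3 bases apart), its half-site AGAACA, the GATA site AGATAA and the E-box CAGCTG. None of these was found in the windows of the 4 genes. Of the 32851 promoters in the table, 0.475% held the full glucocorticoid element, 19.0% the half-site, 11.2% the GATA site and 16.3% the E-box. The core TGACGTC was added to the search after the sequences had been read. It was present in the Epha2 window on both strands, overlapping in 1 palindrome that began at −33 relative to the start site, and in the Zfp459 window at −34, on the strand opposite to the one printed. It was held by 3.21% of all promoters in the table. A match of letters is a description of these windows and not a binding site, and no search was made outside them.

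The targeted gene was read first. Zfp36l2 (probe at mm9 chr17:84583415-84583474) had normalised log2 signals of 3.49 and 3.86 without DEX and 5.56 and 5.42 with DEX under control virus. Under shRNA1 they were 4.09 and 3.91, and under shRNA2 4.13 and 3.69, so all 4 hairpin arrays lay below both control arrays with DEX. These values, like all levels here, are the log2 of a spot's processed signal minus the 75th percentile of its own array, so a negative value means a signal dimmer than that percentile. Levels are compared between groups for 1 probe and never between probes. The 75th percentile itself ran from 474 to 2066 signal units, it was lower on the hairpin arrays of each slide than on the control arrays of that slide, and between 58.9% and 62.5% of probes were well above background. Replicate 1 of every group lay on slide 1 and replicate 2 on slide 2. The position on the slide was the same for a group on both slides, so position and group cannot be told apart. The erythroid markers Gata1, Klf1, Epor, Tfrc, Alas2, Slc4a1 and Kit were well above background on all 8 arrays.

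Epha2 was highest in the control cells that had received DEX. Its probe lies at mm9 chr4:140885139-140885198 and was well above background on all 8 arrays. The normalised log2 signal was −4.79 and −4.87 without DEX, and −2.31 and −2.52 with DEX. It was −4.09 and −4.34 with shRNA1 and −3.25 and −3.35 with shRNA2. The 4 groups did not overlap, and their order from low to high was no DEX, shRNA1, shRNA2 and control with DEX. The choice of the gene partly sets this order, and the share of all genes with 4 separate groups was not counted. Against the control with DEX, the mean was 3.47-fold lower with shRNA1 (log2 difference −1.79, SE 0.28, n = 2 against 2) and 1.84-fold lower with shRNA2 (log2 difference −0.88, SE 0.28). Slide 1 gave −1.77 for shRNA1 and slide 2 gave −1.82, and the same slides gave −0.93 and −0.82 for shRNA2. The SD between the 2 arrays of a group was at most 0.18 on the log2 scale.

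Spink2 had the widest range of the 4 genes. Its probe lies at mm9 chr5:77634137-77634196. The normalised log2 signal was −8.13 and −7.31 without DEX, where neither array was well above background and the lower value is a surrogate set by the scanner software. With DEX it was −1.58 and −3.30. With shRNA1 it was −4.09 and −5.18, well above background on both arrays, and with shRNA2 it was −6.41 and −5.76, of which only slide 2 was well above background. Both arrays with shRNA1 lay below both control arrays with DEX and above both with shRNA2. The shRNA2 spot of slide 1 and the spots without DEX have only a bound and so no order. The control arrays with DEX themselves differed by more than any other pair (SD 1.21 on the log2 scale, n = 2). The mean was 4.58-fold lower with shRNA1 (log2 difference −2.20, SE 0.70) and 12.5-fold lower with shRNA2 as measured (log2 difference −3.64, SE 0.70). With the shRNA2 spot of slide 1 set to the lowest signal that was well above background on its array, the mean was 8.78-fold lower (log2 difference −3.13), a setting chosen after seeing the data. The size depended on the slide: shRNA2 gave −4.82 on slide 1 (−3.81 with that spot at its bound) and −2.46 on slide 2, while shRNA1 gave −2.51 and −1.88. Leaving out the control array with DEX on slide 1 left −1.34 for shRNA1 and −2.79 for shRNA2, and leaving out the one on slide 2 gave −3.05 and −4.50.

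Igfbp6 ran the other way and was lowest in the control cells with DEX. Its probe lies at mm9 chr15:101979852-101979911 and was well above background on all 8 arrays. The normalised log2 signal was −3.70 and −4.21 without DEX, −4.84 and −5.62 with DEX, −3.09 and −3.95 with shRNA1, and −3.58 on each array with shRNA2. All 4 hairpin arrays lay above both control arrays with DEX. The hairpin groups overlapped each other, and shRNA1 overlapped the group without DEX. The mean was 3.27-fold higher with shRNA1 (log2 difference 1.71, SE 0.45, n = 2 against 2) and 3.14-fold higher with shRNA2 (log2 difference 1.65, SE 0.45). Slides 1 and 2 gave 1.75 and 1.67 for shRNA1, and 1.26 and 2.04 for shRNA2.

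Zfp459 was dim everywhere. Its probe lies at mm9 chr13:67506862-67506921. The normalised log2 signal was −5.62 and −6.39 without DEX, where only slide 1 was well above background, and −5.45 on each control array with DEX, both of them well above background. It was −6.85 and −7.26 with shRNA1 and −6.63 and −6.98 with shRNA2, and none of these 4 was well above background. The hairpin arrays lay below both control arrays with DEX. Zfp459 passed the filter on dim probes only through the control with DEX, the 1 group with both arrays well above background. That filter therefore partly sets its lower level in the other groups. In signal units before scaling, the hairpin spots read between 4.10 and 13.3 and the control spots with DEX 22.1 and 47.2. The measured differences were −1.61 for shRNA1 (slides −1.41 and −1.81) and −1.36 for shRNA2 (slides −1.19 and −1.52), with an SE of 0.37. Since the hairpin spots have only a bound, Zfp459 is stated as at least 1.41-fold lower with shRNA1 and at least 1.41-fold lower with shRNA2. Such a bound sets the mean of the bright group against, per array, the lowest signal among probes well above background or the probe's own value if that is higher. A spot can exceed that lowest signal and still not be well above background. Zfp459 did so without DEX on slide 2 (−6.39 against −6.53). Each fold given here as "at least" is therefore approximate. The bound of Zfp459 rests on slide 2 (log2 differences −1.03 and −1.05 at the bound), since on slide 1 the control spot was no brighter than the bound of the hairpin arrays (0.04 and 0.06).

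**Figure D1:**
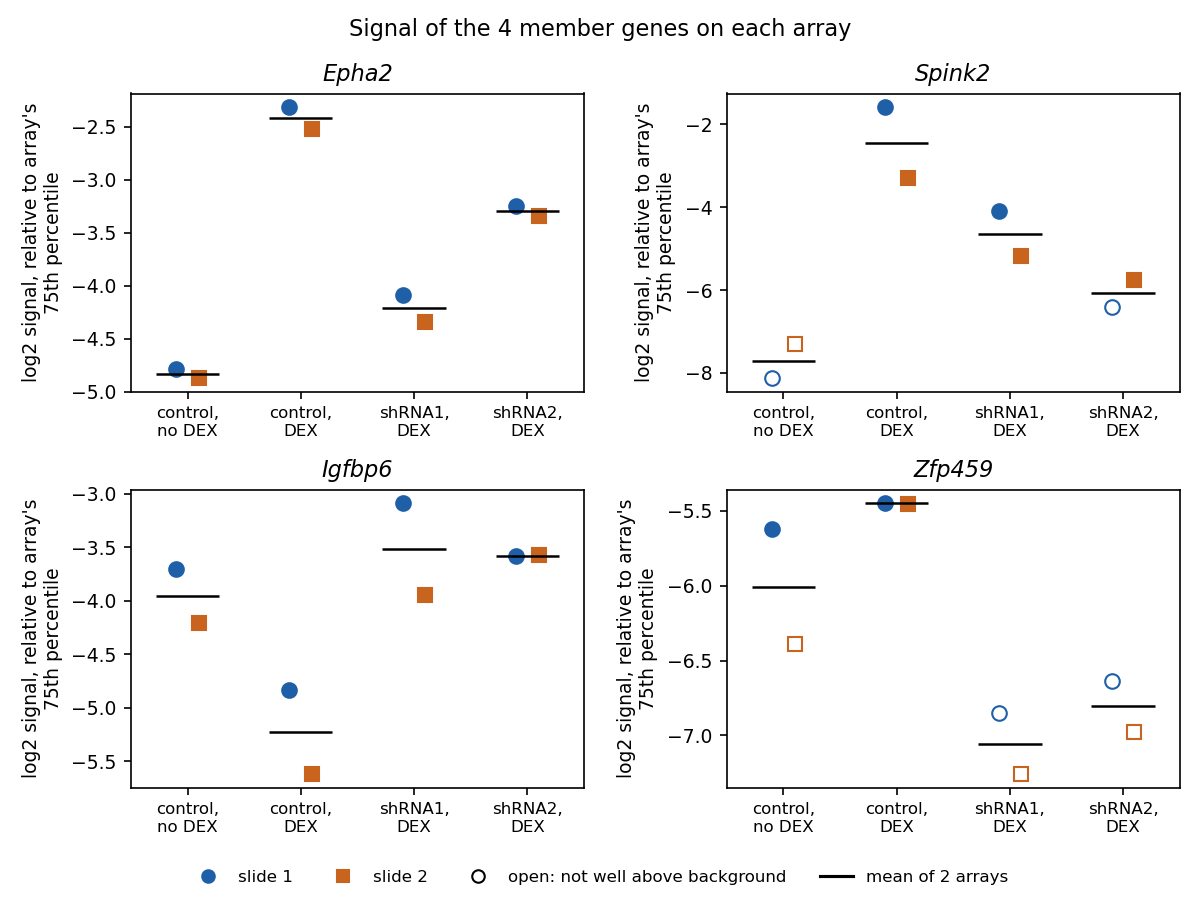
Normalised log2 signal (relative to the 75th percentile of the array) of Epha2, Spink2, Igfbp6 and Zfp459 on each of 8 arrays, by group, with circles for slide 1, squares for slide 2, open symbols where the spot was not well above background, and a line at the mean of 2 arrays. Epha2 and Spink2 peak in the control cells with DEX (means −2.42 and −2.44), Igfbp6 has its minimum there (−5.23), and the hairpin points of Zfp459 are all open.

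The direction of 3 of the 4 genes depended on the background correction. A normexp correction with each spot's local background turned the sign of the hairpin differences of Epha2, Spink2 and Zfp459. With unusable local backgrounds replaced by the median of the array, Epha2, Spink2 and Igfbp6 had the direction given above, and Zfp459 was 0.24 higher with shRNA1 and 0.16 higher with shRNA2 on the log2 scale. The authors' deposited table of log2 values, which has its own normalisation, placed Epha2 between 8.11 and 8.17 in the control with DEX and between 6.53 and 7.62 in the hairpin samples. In the authors' deposited table Spink2 was between 7.57 and 8.79 in the control with DEX and between 5.87 and 6.50 in the hairpin samples. Igfbp6 was between 6.30 and 6.43 and between 6.66 and 7.38 in the authors' deposited table, and Zfp459 between 6.15 and 6.40 and between 5.76 and 6.03. In that table the control with DEX and the pooled hairpin samples did not overlap for any of the 4 genes. The table holds the same arrays that chose the genes, so nothing is read from this. For Zfp459 the samples without DEX (6.16 and 6.13) overlapped the control with DEX there. The share of all genes separated in that way was not counted in that table.

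Among all 19130 genes tested, 544 had all 4 hairpin arrays below both control arrays with DEX (2.84%), as Epha2, Spink2 and Zfp459 did. Another 902 genes had all 4 above (4.72%), as Igfbp6 did. Nothing is read from these counts, because the same contrasts chose the members. A difference of at least 2-fold in the same direction on both slides with both hairpins was met by 13 genes that were lower (0.068%) and 61 that were higher (0.319%). Spink2 ranked 1 among all genes by its smallest fall over the 4 slide-wise differences (1.88) and Epha2 ranked 25 (0.82). Zfp459 is given no rank, since its hairpin spots have only a bound. Zfp36l2 itself ranked 5 by that measure, with 1.42. Igfbp6 ranked 22 by its smallest rise (1.26). The ranks of the chosen genes come from the contrasts that chose them, so nothing is read from these ranks. With a Benjamini-Hochberg adjusted p below 0.05, limma called 0 genes for shRNA1 (0%; 407 genes had an unadjusted p under 0.05) and 0 genes for shRNA2 (0%; 238 genes). With the slide as a block limma called 0 genes for shRNA1 (0%; 3410 genes) and 1 gene for shRNA2 (0.00523%; 1094 genes), and that gene was none of the 4.

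**Figure D2:**
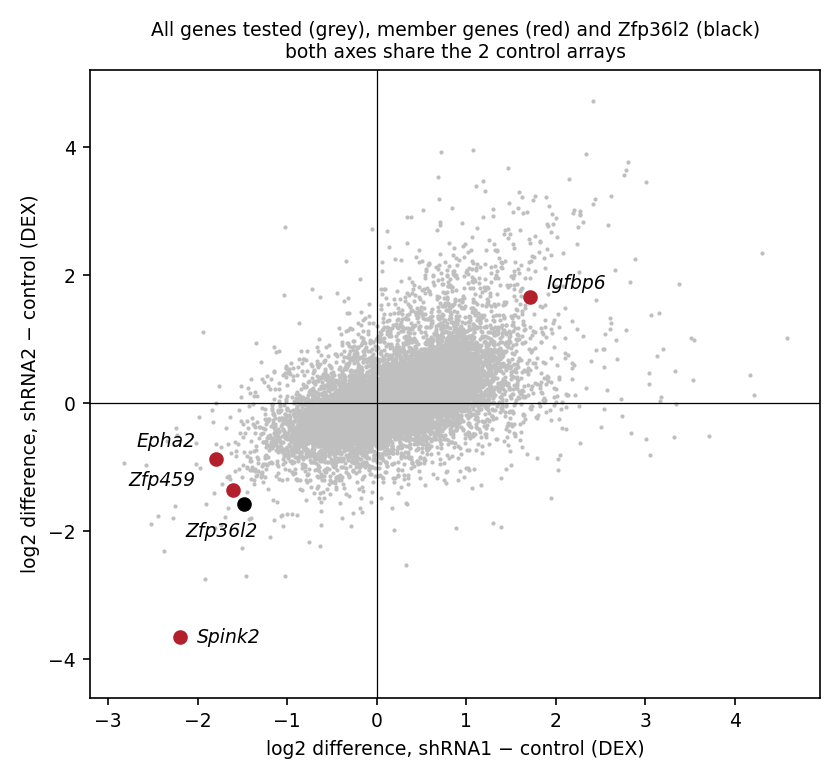
Log2 difference from the control with DEX for shRNA1 (horizontal) and shRNA2 (vertical), 1 grey dot for each of 19130 genes tested, the 4 chosen genes in red and Zfp36l2 in black. Both axes use the same 2 control arrays with DEX. Spink2 lies lowest of the marked genes (−2.20 and −3.64) and Igfbp6 upper right (1.71 and 1.65).

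The hairpins were then set against each other to see how alike the changes were in size. For Igfbp6 the difference between shRNA1 and shRNA2 was 0.06 on the log2 scale, with a 95% interval of −1.02 to 1.14. An interval of this width does not show that the changes were equal. Zfp459 was at background in both groups, so no difference is given for it. Without the shRNA1 array of replicate 1 the Igfbp6 difference was −0.37, and without the shRNA2 array of that replicate it was −0.30 in the blocked fit. For Epha2 it was −0.92 (−1.59 to −0.25, not adjusted for the number of genes), with −0.84 on slide 1 and −0.99 on slide 2. It did not pass limma's threshold (adjusted p 1.00 unblocked, 0.289 in the blocked fit). For Spink2 the measured difference was 1.45 (−0.25 to 3.15), with 2.32 on slide 1 and 0.58 on slide 2. With the shRNA2 spot of slide 1 at its bound it was 0.94, with 1.30 on slide 1. Zfp36l2 differed between the hairpins by 0.09 (−0.67 to 0.85).

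The contrast of DEX against no DEX under control virus did not choose the genes. It shares the control arrays with DEX with the contrasts that did, so it is not independent of the choice. Epha2 was 5.32-fold higher with DEX (log2 difference 2.41, SE 0.28), and the difference was 2.48 on slide 1 and 2.35 on slide 2. limma without a block gave Epha2 a Benjamini-Hochberg adjusted p of 0.16, and with the slide as a block it gave 0.0305. That call was lost when any 1 of the 4 control arrays or either shRNA1 array was left out of the blocked fit (adjusted p 0.0729 to 0.386), and was kept without either shRNA2 array (adjusted p 0.0255). Spink2 was at least 14.3-fold higher with DEX by the approximate bound defined above, since neither array without DEX was well above background. The measured difference of Spink2 was 5.28 (SE 0.70) with 6.55 on slide 1 and 4.01 on slide 2, at a limma adjusted p of 0.197 without a block and 0.0705 with it. Igfbp6 was 2.42-fold lower (log2 difference −1.27, SE 0.45; slides −1.14 and −1.41), at a limma adjusted p of 1.00 and 0.163 with the block. Zfp459 differed by 0.56 (SE 0.37, slides 0.17 and 0.94), at a limma adjusted p of 1.00 and 0.564 with the block. It passed the filter on dim probes only through the control with DEX, which partly sets this difference.

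Both DEX arrays of Epha2, Spink2 and Zfp459 were above both arrays without DEX, as were those of 1929 of all genes tested (10.1%). For Zfp459 the filter on dim probes partly sets this order. Both of Igfbp6 were below, as were those of 3290 genes (17.2%). limma called 0 of all genes for DEX without a block (0%; 601 genes had an unadjusted p under 0.05) and 42 with the slide as a block (0.22%; 1825 genes), of which Epha2 was 1. Without 1 array, the blocked count was 2 genes without replicate 1 of the group without DEX and 108 without either shRNA2 array. It was 0 without replicate 2 of the group without DEX, and also when any single array of the control with DEX or of shRNA1 was dropped.

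**Figure D3:**
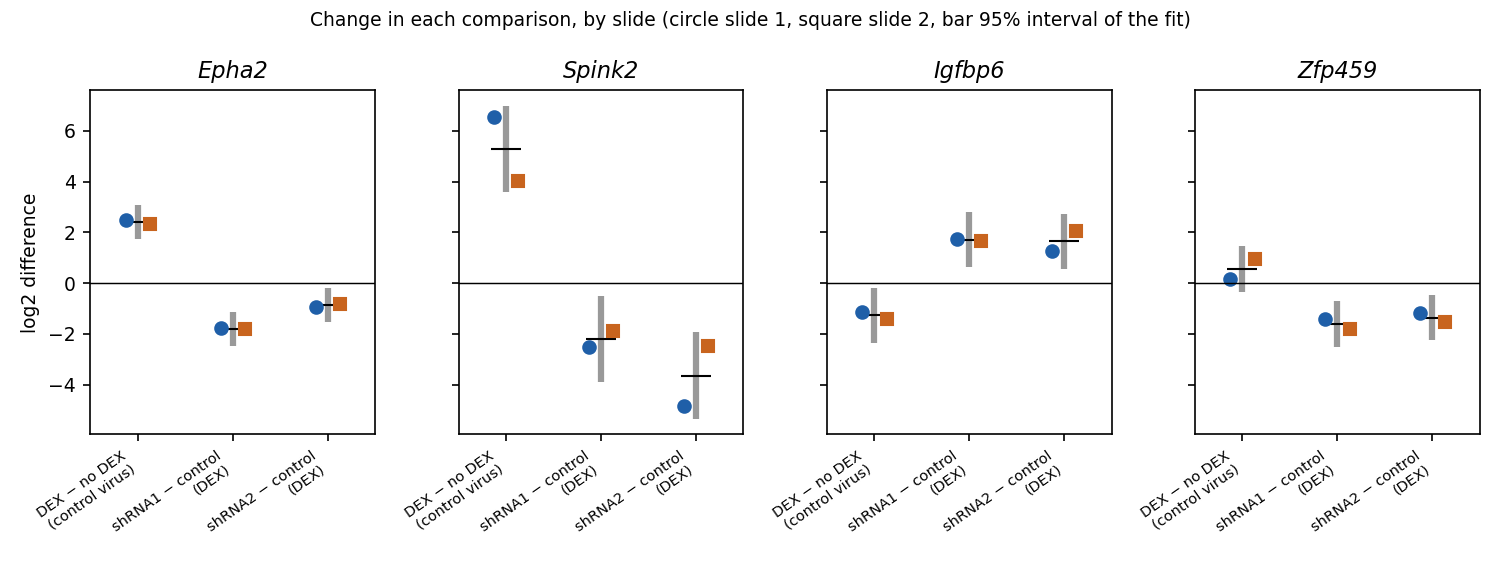
Log2 difference in each of 3 comparisons for each gene, with a circle for slide 1, a square for slide 2, a dash for the mean and a grey bar for the 95% interval of the unblocked fit. For each gene the DEX difference and the hairpin differences have opposite signs, and they share the control arrays with DEX. Examples are 2.41 against −1.79 and −0.88 for Epha2 and −1.27 against 1.71 and 1.65 for Igfbp6. Zfp459 passed the filter on dim probes only through the control with DEX, which partly sets its signs.

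Set against the cells without DEX, the hairpin cells with DEX were not alike for the 4 genes. Epha2 with shRNA1 was 0.62 above the level without DEX on the log2 scale (95% interval −0.06 to 1.29), and with shRNA2 it was 1.54 above (0.86 to 2.21). Neither passed limma's threshold (adjusted p 0.95 and 0.506 unblocked, 0.275 and 0.0668 in the blocked fit). Of all 19130 genes, limma called 0 in each of these comparisons without a block. In the blocked fit it called 21 for shRNA1 and 30 for shRNA2, and none of them was a gene of the set. Spink2 was at least 3.13-fold higher with shRNA1 than without DEX. With shRNA2 it was well above background on 1 of 2 arrays, against none without DEX, and no fold is given. Igfbp6 differed from the level without DEX by 0.44 (−0.65 to 1.52) with shRNA1 and by 0.38 (−0.70 to 1.46) with shRNA2. Zfp459 had both hairpin groups at background, and 1 of 2 arrays without DEX was well above it.

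These are bulk samples, so fewer cells of a type and less RNA per cell cannot be told apart. Marker levels were summed per array in multiples of the array's 75th percentile signal. Early progenitor markers (Kit, Myb, Cd34, Cd48, Hoxa9, Meis1, Mecom, Hlf and Flt3, of which 8 to 9 of 9 were well above background on an array) summed to 13.8 to 20.5 without DEX and 32.7 to 34.2 with DEX. They summed to 18.2 to 19.8 with shRNA1 and 28.2 to 32.1 with shRNA2, so the sum was highest in the control with DEX, as Epha2 and Spink2 were. The median over these markers had no such order (−1.86 and 0.60 log2 without DEX, −1.47 and −1.16 with DEX, −1.52 and −1.51 with shRNA1, and 0.99 and −1.62 with shRNA2). The part of these markers in the differences of Epha2 and Spink2 was not tested. The 7 erythroid markers named above summed to 386 and 220 without DEX on slides 1 and 2, to 213 and 127 with DEX, to 410 and 193 with shRNA1 and to 220 and 136 with shRNA2. On each slide they were thus lowest in the control with DEX, as Igfbp6 was, and their part was not tested. Granulocyte markers (9 of 9 well above background, among them Elane, Mpo, Camp and Ltf) summed to 39.5 to 177 without DEX, 35.9 to 63.5 with DEX, 128 to 138 with shRNA1 and 86.2 to 525 with shRNA2. They were thus above the control with DEX on all 4 hairpin arrays, as Igfbp6 was, and their part was not tested. Monocyte markers (6 to 7 of 8 well above background) summed to 3.91, 3.12, 9.06 and 13.9 on slide 1 in the same order. On slide 2 they summed to 5.43, 1.69, 3.33 and 1.96. On each slide the monocyte sum was thus lowest in the control with DEX, as Igfbp6 was, and its part was not tested. Endothelium markers summed to 3.03 and 1.68 without DEX on slides 1 and 2, to 3.04 and 1.33 with DEX, to 6.57 and 2.19 with shRNA1 and to 5.15 and 1.83 with shRNA2. On both slides they were thus above the control with DEX with either hairpin, as Igfbp6 was, and their part was not tested. Of these 4 markers, Pecam1 and Kdr were well above background on 8 arrays, Tek on 7 and Cdh5 on none. Megakaryocyte markers (5 of 5 well above background) summed to 43.2 to 60.9, 13.7 to 24.0, 17.4 to 66.7 and 10.6 to 157 in the order of groups used before, and mast cell markers (2 to 4 of 4) to 0.50 to 5.13, 0.30 to 1.12, 0.26 to 0.95 and 0.75 to 1.72.

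The lists of stroma, hepatoblasts and epithelium had smaller sums. Of 6 stroma markers, 1 to 5 were well above background on an array, Pdgfra on none, and the sums overlapped between groups (0.82 to 1.03, 0.87 to 0.87, 0.75 to 0.95 and 0.50 to 1.04). Of 5 hepatoblast markers 2 to 3 were well above background on an array, Afp and Serpina1a on 8 arrays, Apoa1 on 7, and Alb and Ttr on none, with sums of 0.11 to 0.20, 0.46 to 1.00, 0.32 to 0.59 and 0.26 to 0.39. On both slides the hepatoblast sum was highest in the control with DEX, as Epha2 and Spink2 were, and its part was not tested. On slide 1 it was 1.00 there against 0.59 with shRNA1 and 0.26 with shRNA2. On slide 2 it was 0.46 against 0.32 and 0.39. Of 4 epithelium markers 1 to 2 were well above background on an array, Krt18 on 8 arrays, Krt8 on 4, and Epcam and Cdh1 on none, with sums of 0.12 to 0.12, 0.12 to 0.15, 0.04 to 0.22 and 0.07 to 0.31.

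The relatives of each gene were then described from lists that leave out the gene itself. With limma's Benjamini-Hochberg adjusted p, 0 members of any list passed in any comparison, with or without the slide as a block. Without the block, 0 to 1 genes of a list had an unadjusted p under 0.05 in a comparison, against 3.14% (DEX), 2.13% (shRNA1) and 1.24% (shRNA2) of all genes. In the blocked fit these shares of all genes were 9.54%, 17.8% and 5.72%. The Eph list then had 2, 4 and 1 of 13 in that order, the IGF list 3, 5 and 1 of 14 and the KRAB list 0, 6 and 5 of 26, and nothing is read from these counts. The scaling of the arrays moves these medians: with the array median in place of the 75th percentile, the median of all genes shifted by −0.40 for shRNA1, −0.24 for shRNA2 and 0.10 for DEX on the log2 scale. Counts are therefore given also as the number above the median of all genes, which was 0.18 for shRNA1, 0.02 for shRNA2 and −0.08 for DEX.

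Most tested Eph receptors and ephrins lay above the median of all genes with either hairpin, where Epha2 lay below it. Of 21 other genes of the family 13 were tested, and 12 of these were above zero with shRNA1 (median log2 difference 0.73, and 12 above the median of all genes) while Epha2 was at −1.79. With shRNA2 10 of 13 were above zero (median 0.35, and 9 above the median of all genes), against −0.88 for Epha2. With the array median as the scale, 11 of 13 were above zero with shRNA1 and 7 of 13 with shRNA2 (medians 0.34 and 0.11), and the authors' deposited table gave 12 and 8 of 13. The median with shRNA2 rested on slide 1: without the shRNA2 array of replicate 1 it lay at −0.28 relative to that of all genes. With DEX 4 of 13 were above zero (median −0.15), against 2.41 for Epha2. Ephb6, a receptor that lacks kinase activity, was well above background on all arrays and differed by −1.26 with DEX, 1.12 with shRNA1 and −0.01 with shRNA2. Epha4, another receptor for ephrins, was well above background only on the 2 arrays without DEX (−5.86 and −5.00), which makes it at least 1.89-fold lower with DEX (limma adjusted p 0.198, and 0.065 with the block). Ephb4, a receptor for ephrin-B2, was well above background only on the shRNA1 arrays, at least 2.07-fold higher than in the control with DEX. Its measured differences were 1.92 on slide 1 and 0.65 on slide 2. Epha4 and Ephb4 each passed the filter on dim probes only through the group where they were high, which partly sets these differences. Among the ligands, Efnb1 differed by −0.13 with shRNA1 and −0.70 with shRNA2, Efnb2 by 1.04 and 0.84, and Efna4 by 0.38 and 0.08. Efna1 and Epha1 were on the array and did not pass the filter on dim probes.

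For the insulin-like growth factor genes 14 of 22 others were tested, and they lay near the median of all genes. With shRNA1 9 of 14 were above zero (median 0.19, 7 above the median of all genes), with shRNA2 9 of 14 (median 0.11, 9 above) and with DEX 4 of 14 (median −0.17, 7 above). With the array median as the scale, 4 of 14 were above zero with shRNA1 and 5 of 14 with shRNA2. Igfbp4, another binding protein, differed by 0.33 with shRNA1 and 1.18 with shRNA2, but its slides differed (1.15 and −0.50, and 2.15 and 0.20). Igfbp5, which was chosen for mention after its values were seen, was 2.26 higher with shRNA1 on the log2 scale (slides 2.32 and 2.20) and differed by −0.04 with shRNA2 (slides 0.89 and −0.96). Of the ligands and receptors, Igf1 differed by 0.59 with shRNA1 and 0.31 with shRNA2, Igf1r by −0.27 and −0.38, and Igf2r, the receptor that takes up IGF-II, by −0.47 and −0.29. Igf2, Igfbp2, Igfbp3 and Igfbp7 were on the array and did not pass the filter on dim probes.

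Most KRAB zinc finger genes and corepressors lay below the median of all genes with either hairpin, as Zfp459 did. Sizes are not compared with Zfp459, since its hairpin spots have only a bound. Of 29 others, 27 were on the array and 26 were tested. With shRNA1 10 of 26 were above zero (median −0.21), and 5 of 26 were above the median of all genes. With shRNA2 4 of 26 were above zero (median −0.23), and 3 of 26 were above the median of all genes. With DEX 14 of 26 were above zero (median 0.02). Relative to all genes this median was 0.10, and it read −0.12 without replicate 1 of the group without DEX and −0.27 without replicate 2 of the control with DEX. The counts above zero depended on the background correction: with unusable local backgrounds replaced, normexp gave 15 of 26 with shRNA1 and 10 of 26 with shRNA2, while 5 and 3 were above the median of all genes. With normexp on each spot's local background as given, the median with shRNA2 lay 0.60 above that of all genes. Zfp455, a member of the list, read −4.13 and −3.61 in the control with DEX and −5.25 and −4.76 with shRNA1, a difference of −1.13, and differed by −0.43 with shRNA2. Trim28, the corepressor, differed by −0.55 and −0.13, and Setdb1, the histone methyltransferase recruited by it, by 0.05 and 0.00. Zfp457 and Zfp595 differed by 0.51 and 0.51 with shRNA1 and by −0.04 and −0.11 with shRNA2, Zfp458 by −0.38 and −0.13 in that order of hairpins, and Rsl1 by −0.21 and −0.03. These genes are near-identical in part, and probes may share signal.

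Of 13 other Kazal inhibitor genes 12 were on the array and Spink4 alone was tested. It differed by 2.98 with DEX (slides 3.47 and 2.48), by 1.10 with shRNA1 and by 0.35 with shRNA2, so it lay above zero in the hairpin comparisons where Spink2 was low. Its 2 arrays of a group were far apart (−1.07 and −4.04 in the control with DEX), and limma gave it an adjusted p of 1.00 for DEX, and 0.079 with the slide as a block. Spink3, Spink5 and Spink10 were on the array and did not pass the filter.

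**Figure D4:**
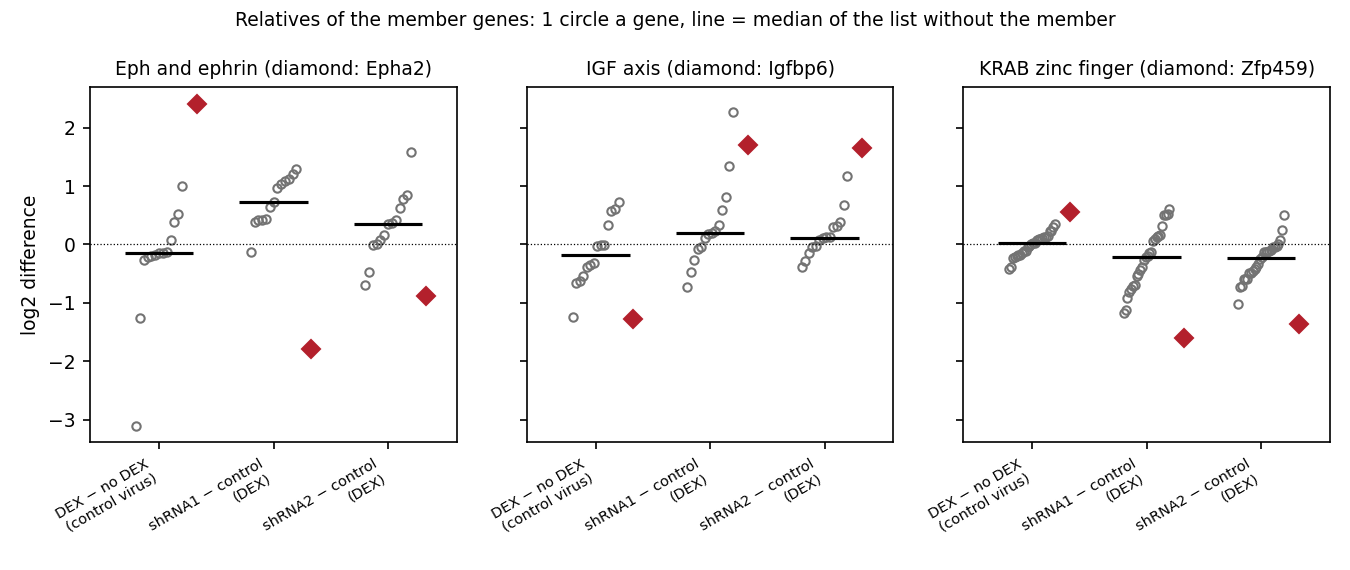
Log2 difference in each of 3 comparisons for the tested members of the Eph and ephrin list (13 genes), the IGF axis list (14) and the KRAB zinc finger list (26), 1 circle a gene, a line at the median, and a red diamond for Epha2, Igfbp6 and Zfp459. The medians with shRNA1 are 0.73, 0.19 and −0.21, and the diamonds lie at −1.79, 1.71 and −1.61. The hairpin diamonds of Zfp459 use spots that were not well above background, so their size is not known.

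The genes with a symbol whose profile was most like each of the 4 were found by Pearson's r over the 8 arrays, given as a description since the points share groups and slides. Epha2 was most like 1700001L05Rik (r = 0.988), Cables1 (0.983) and Fut8 (0.976), and 38 genes with a symbol had an r above 0.9 with it. Cables1, which encodes a Cdk5 and Abl enzyme substrate, differed by 2.14 with DEX, −1.35 with shRNA1 and −0.67 with shRNA2. Fut8, the enzyme of core fucosylation, differed by 1.15, −1.11 and −0.40 in the same order. Spink2 was most like Siae (0.968), Hsdl2 (0.959) and Ngly1 (0.954), with 17 such genes above 0.9. Siae, a sialic acid esterase, differed by 1.74, −0.64 and −1.06. Igfbp6 was most like Oraov1 (0.956), Fads6 (0.934) and D11Wsu47e (0.932), with 11 above 0.9, and Fads6 differed by −0.56, 1.07 and 0.86. Zfp459 was most like Tnfsf9 (0.925), Gm11110 (0.922) and Slc39a1 (0.896), with 2 above 0.9. No hairpin spot of Zfp459 and no spot of Spink2 without DEX was well above background. The r values of these genes thus rest partly on such spots. Tnfsf9, the ligand of 4-1BB, differed by 0.22, −1.13 and −0.51 and was well above background on all arrays.

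Among themselves the 4 profiles were not equally alike. Over the 8 arrays Epha2 and Spink2 had r = 0.79, Epha2 and Zfp459 0.40, and Spink2 and Zfp459 0.28. Igfbp6 had r = −0.57 with Epha2, −0.51 with Spink2 and −0.69 with Zfp459. With the signal of Zfp36l2 the values were 0.84 for Epha2, 0.87 for Spink2, 0.62 for Zfp459 and −0.80 for Igfbp6. The hairpin arrays that chose the genes are among these 8, so these values describe the arrays and support nothing. Those of Zfp459 and Spink2 also rest partly on spots that were not well above background.

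Genes among the 3 nearest measured ones with a symbol on each side were read from the probe positions in the files. Near Epha2, Fbxo42 at 128 kb differed by 0.14 with shRNA1 and −0.0057 with shRNA2 on the log2 scale, and Gm4123 at 208 kb by 0.54 and 0.37. Spen, a transcriptional corepressor at 139 kb, differed by 0.14 and 0.33, 6330545A04Rik by 0.71 and −0.43, and C630004L07Rik by 0.37 and −0.47. Around Spink2, Hopx, a homeodomain protein without DNA binding of its own at 118 kb, was 2.40 higher with DEX on the log2 scale (slides 2.16 and 2.64), as Spink2 was, but differed by 0.15 with shRNA1 and −0.51 with shRNA2. Rest at 70.1 kb, a repressor of neuronal genes, differed by 0.04 with DEX and by −0.11 and −0.34 with the hairpins, and Polr2b, an RNA polymerase subunit, by 0.18, −0.58 and −0.49. Next to Igfbp6, Soat2, a cholesterol-esterifying enzyme at 13.8 kb, differed by 1.34 with shRNA1 and 0.73 with shRNA2, and Zfp740 at 59.3 kb by 1.07 and 0.77. Csad, Eif4b and Spryd3 differed by 0.10 and −0.27, by 0.14 and 0.11, and by −0.40 and −0.29. Around Zfp459 all 6 neighbours were zinc finger genes. Zfp953 at 66.6 kb differed by −1.18 and −0.60, Zfp456 at 42.3 kb by −0.23 and −0.25 and Zfp429 at 16.2 kb by −0.13 and −0.04. On the other side Zfp874a differed by 0.32 and −0.45, Zfp874b by 0.16 and −0.72 and Zfp58 by 0.60 and 0.25. The smallest adjusted p over both hairpins among the neighbours named was 0.922 by limma.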

How the data were processed

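Gene expression was measured in 8 samples on 1-colour Agilent arrays. Per the file headers, the authors quantified the deposited intensity (processed signal, linear scale) using Feature Extraction 10.1.1.1 of Agilent. limma is also named, without a version, per the submitters' processing notes. How the authors made their deposited log2 table is not given in the sources used here; it has column medians of 6.65 to 6.66 and served as an alternative. Probe positions are mm9 per the file headers, and promoters are RefSeq's for GRCm38.p6; no coordinates were converted and no annotation of mm9 was used, so exon positions are not stated.

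Control spots and outlier spots were left out, and 441 of 39429 probes lacked a usable spot. Each log2 signal was scaled by subtracting its array's 75th percentile. Tested probes were well above background on both replicates in 1 group or more, and the probe with the highest mean stood for a gene (19130 genes, 3900 with several probes). Groups were compared with limma 3.58.1 (lmFit, eBayes) in R 4.3.3 over all 8 arrays, with Benjamini-Hochberg adjustment over all genes at 0.05, and also with the slide as a block. Same-numbered arrays shared a slide and deviated together (r 0.43 to 0.86 over 6 pairs of groups). The code was tested on simulated data. Precision is limited by 2 arrays a group.

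The 4 genes, the lists and the tests were chosen with earlier results of these data known. Other genes are named from the lists fixed for each family, as the 3 most correlated and the 3 nearest on each side among genes with a symbol, or as the targeted gene. A neighbouring gene and a marker gene are not reported here.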

Additional observations from a re-analysis of the deposited data

How the results depend on the processing

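The unit of every difference is log2. With normexp on each spot's local background, Epha2 read −0.81 for DEX, 0.12 for shRNA1, 1.27 for shRNA2 and −1.15 between the hairpins. Spink2 then read −1.01, 0.33, 1.46 and −1.14, Zfp459 −1.79, 1.00, 2.23 and −1.23, and Igfbp6 2.33 for shRNA2 and −1.06 between the hairpins. Relative to all genes, the KRAB list read −0.45 for DEX and 0.60 for shRNA2, and the Eph list −0.52 between the hairpins; the cause was not tested. With unusable local backgrounds replaced, Epha2 read −0.83, −0.39 and −0.44 for shRNA1, shRNA2 and their difference, and Spink2 −0.98, −1.40 and 0.42. Igfbp6 read 1.08 and 1.06 with the hairpins. Zfp459 read −0.0083 for DEX, 0.24, 0.16 and 0.0801. The 50 units added to every spot exceed its processed signal on every array, and that of some spots of Epha2, Spink2 and Igfbp6. The part of this addition was not tested. With the array median, Epha2 read −2.19, −1.12 and −1.07, Zfp459 −2.00 for shRNA1, and Igfbp6 −0.0946 between the hairpins. Quantile normalization gave Epha2 −2.14, −1.08 and −1.07, and Zfp459 −2.04. In the authors' deposited table Epha2 read −1.44 for shRNA1 and −0.67 between the hairpins, Spink2 −2.10 for shRNA2 and 0.39 between them, Igfbp6 0.67 and 0.66, and Zfp459 −0.44 and −0.36.

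Counts of genes at least 2-fold lower on both slides with both hairpins were 25 (array median), 20 (quantile), 5 (the authors' deposited table) and 23 (no filter on dim probes), against 13. Counts higher were 36, 39 and 13 with the array median, quantile normalization and the deposited table, against 61. Slide 1 and slide 2 alone gave Spink2 6.55 and 4.01 for DEX, −4.82 and −2.46 for shRNA2 and 2.32 and 0.58 between the hairpins. They gave Zfp459 0.17 and 0.94 for DEX, and slide 2 gave Igfbp6 −0.37 between the hairpins. With the slide as the replicate block, Epha2 kept 2.41 for DEX and passed limma's threshold, and the calls numbered 42 for DEX and 1 for shRNA2. Against the cells without DEX, the calls went from 0 to 21 for shRNA1 and from 0 to 30 for shRNA2. The block changed no other call of the 4 genes.

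Leaving out 1 array, with or without the block (the blocked form was chosen after seeing the data, and a lone array is assumed to vary like the other groups), gave Epha2 2.31 to 2.52 for DEX, −1.92 to −1.67 for shRNA1 and −1.04 to −0.79 between the hairpins. Spink2 ran from −3.12 to −1.28 for shRNA1 and from −4.56 to −2.72 for shRNA2, and Igfbp6 from −0.37 to 0.49 between the hairpins. The KRAB list ran from −0.27 to 0.34 for DEX and the Eph list from −0.28 to 0.54 for shRNA2. Calls ran from 0 to 108 for DEX and from 0 to 8 for shRNA2. Other probes of a gene could not be tried, since each of the 4 has 1 probe. No other setting turned a direction of a gene's DEX or hairpin difference.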
